A study of Rattus norvegicus with 10 samples.

Results

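Adcyap1r1, Pde4d and Crem code for a receptor, a phosphodiesterase and a transcription factor of the cAMP pathway, and each was read by 1 of the 20174 gene probes on the array. The 3 genes were chosen by measured values of these same arrays, since each is on the study's list of mRNAs that were lower after dexmedetomidine (DEX) and each belongs to this pathway. Their differences between the groups are therefore given as a description, without a test. The tissue was the anterior wall of the left ventricle from 10 male rats of the Wistar strain, weighing 250 to 350 g, and each rat had 1 array read in 1 colour, so the arrays of a group are separate animals. The DEX group (n = 5) was infused with DEX, an alpha-2 adrenergic agonist, through a vein for 10 min at 6 mcg/kg/h, then for 20 min at 0.7 mcg/kg/h, and then with saline for 5 min. The control group (n = 5) received saline throughout. The age of the rats is not given in the sources used here, and RNA was taken from hearts that had not been made ischemic.

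In the heart, noradrenaline acting on beta adrenergic receptors activates the G protein Gs, which switches on adenylyl cyclase, and the cAMP that results activates protein kinase A. Protein kinase A raises calcium cycling and the rate and force of the beat, and in the nucleus it phosphorylates CREB and its relative CREM, which bind the cAMP response element (CRE). Phosphodiesterases of the PDE4 family break cAMP down again, and alpha-2 adrenergic receptors act the other way from beta receptors through the G protein Gi, which lowers cAMP. The receptor coded by Adcyap1r1, PAC1, binds the neuropeptide PACAP and couples to Gs. PDE4D is a major PDE4 enzyme of cardiac myocytes, where it sits in complexes with beta receptors and calcium handling proteins. Crem makes both activators and repressors of cAMP-driven transcription, and a promoter within the gene makes the short inducible repressor ICER. With 1 probe for each gene, the forms of CREM and PDE4D cannot be told apart here, and in tissue RNA neither can fewer cells of a type and less RNA per cell.

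In cAMP signalling, CREB and CREM bind a short DNA element, TGACGTCA, and its shorter form TGACG or CGTCA. The bases before the start sites of the 3 genes are therefore shown. RefSeq (GRCr8 assembly) lists 3 start sites for Crem, 5 for Pde4d and 1 for Adcyap1r1, all on the plus strand, and the 250 bases before each start are printed 5′ to 3′ for the 3 of Crem, the 2 of Pde4d that hold the shorter form, and that of Adcyap1r1. Capitals mark a CRE where the whole element is present and the shorter form elsewhere.
Crem start 1, chr17:58933816-58934065: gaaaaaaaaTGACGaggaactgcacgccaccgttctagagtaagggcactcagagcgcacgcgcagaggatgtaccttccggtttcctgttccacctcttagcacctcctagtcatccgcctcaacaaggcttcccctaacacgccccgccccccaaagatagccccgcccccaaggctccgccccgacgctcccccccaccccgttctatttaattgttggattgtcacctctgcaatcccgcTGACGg
Crem start 2, chr17:58984547-58984796: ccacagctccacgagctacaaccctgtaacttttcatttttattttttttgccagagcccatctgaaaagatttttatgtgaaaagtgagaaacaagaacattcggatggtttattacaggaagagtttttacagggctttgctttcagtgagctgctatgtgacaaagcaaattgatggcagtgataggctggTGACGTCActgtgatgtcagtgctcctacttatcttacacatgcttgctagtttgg
Crem start 3, chr17:58985240-58985489: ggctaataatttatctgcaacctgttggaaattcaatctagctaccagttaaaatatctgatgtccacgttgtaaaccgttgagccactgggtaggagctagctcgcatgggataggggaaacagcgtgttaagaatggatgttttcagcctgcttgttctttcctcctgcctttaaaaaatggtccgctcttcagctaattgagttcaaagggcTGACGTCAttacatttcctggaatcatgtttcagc
Pde4d start 3, chr2:42592499-42592748: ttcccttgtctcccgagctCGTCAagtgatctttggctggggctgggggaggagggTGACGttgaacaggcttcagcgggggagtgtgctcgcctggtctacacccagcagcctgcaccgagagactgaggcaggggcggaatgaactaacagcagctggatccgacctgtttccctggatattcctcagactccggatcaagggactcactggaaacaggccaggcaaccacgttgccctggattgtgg
Pde4d start 4, chr2:42767367-42767616: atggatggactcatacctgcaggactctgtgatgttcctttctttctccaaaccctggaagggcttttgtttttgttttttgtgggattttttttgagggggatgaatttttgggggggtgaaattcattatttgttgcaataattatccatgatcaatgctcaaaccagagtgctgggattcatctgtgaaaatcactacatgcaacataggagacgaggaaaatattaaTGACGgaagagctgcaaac
Adcyap1r1, chr4:85923921-85924170: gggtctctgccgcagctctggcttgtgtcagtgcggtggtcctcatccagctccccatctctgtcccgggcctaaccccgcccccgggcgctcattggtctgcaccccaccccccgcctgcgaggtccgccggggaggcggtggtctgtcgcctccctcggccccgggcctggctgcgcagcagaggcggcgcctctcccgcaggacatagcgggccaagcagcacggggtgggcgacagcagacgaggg

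In Crem, the whole element begins 56 bases before start 2 and 35 bases before start 3, both within the gene, and another begins 40 bases after start 3, while start 1 holds only the shorter form, 241 and 6 bases before it. Counting also the 50 bases after each start, both strands were searched in windows of 300 bases, and each whole element holds the shorter form on both strands. The whole element was found in 2 of the 9 windows of the 3 genes and in 1.83% of 33469 windows of all genes. The shorter form was found in 5 of the 9 windows and in 21.2% of all windows. In Pde4d, the shorter form lies 231 and 194 bases before start 3 and 19 bases before start 4, and the windows of the remaining 3 starts and of Adcyap1r1 hold neither. A match describes the letters of a window and is not a site of binding. Which start the array's probes read from is not given in the sources used here.

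All 3 genes gave lower scaled signals in the DEX group than in the control group, with log2 fold changes from -0.75 to -0.59, and all 3 gave dim spots. The scaled signal is the spot intensity less the mean of the array's blank spots, multiplied so that the median of the detected probes is 25 on every array. A spot counts as detected when it lies more than 2 SD of the blank spots above their mean.

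The scaled signal of Adcyap1r1, the PACAP receptor, was 7.12, 5.66, 4.80, 5.24 and 3.77 on control arrays 1 to 5. In the DEX group it was 3.88, 3.35, 2.82, 2.37 and 3.26 on arrays 1 to 5. The groups touch at 1 point, where DEX 1 lies above control 5, and DEX was the lower in 24 of the 25 pairs of a control and a DEX array. The mean was 3.13 ± 0.571 (SD, n = 5) in the DEX group vs. 5.32 ± 1.23 (SD, n = 5) in the control group, a log2 fold change of -0.75 with a standard error of 0.18.

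The scaled signal of Pde4d, which codes for an enzyme that breaks down cAMP, was 9.24, 10.1, 7.93, 5.04 and 6.45 on control arrays 1 to 5. In the DEX group it was 5.85, 4.15, 5.07, 3.94 and 5.24. Control 4 lies within the range of the DEX group and the other control arrays above it, so that DEX was the lower in 22 of 25 pairs. The mean was 4.85 ± 0.794 (SD, n = 5) in the DEX group vs. 7.74 ± 2.04 (SD, n = 5) in the control group, a log2 fold change of -0.65 with a standard error of 0.19.

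The scaled signal of Crem, which codes for a transcription factor acting at the CRE, was 9.82, 7.96, 9.58, 6.22 and 5.58 on control arrays 1 to 5. In the DEX group it was 7.42, 5.14, 3.66, 5.38 and 4.52. DEX 1 lies above controls 4 and 5, the other DEX arrays lie below every control array, and DEX was the lower in 23 of 25 pairs. The mean was 5.22 ± 1.40 (SD, n = 5) in the DEX group vs. 7.83 ± 1.92 (SD, n = 5) in the control group, a log2 fold change of -0.59 with a standard error of 0.21.

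**Figure D1:**
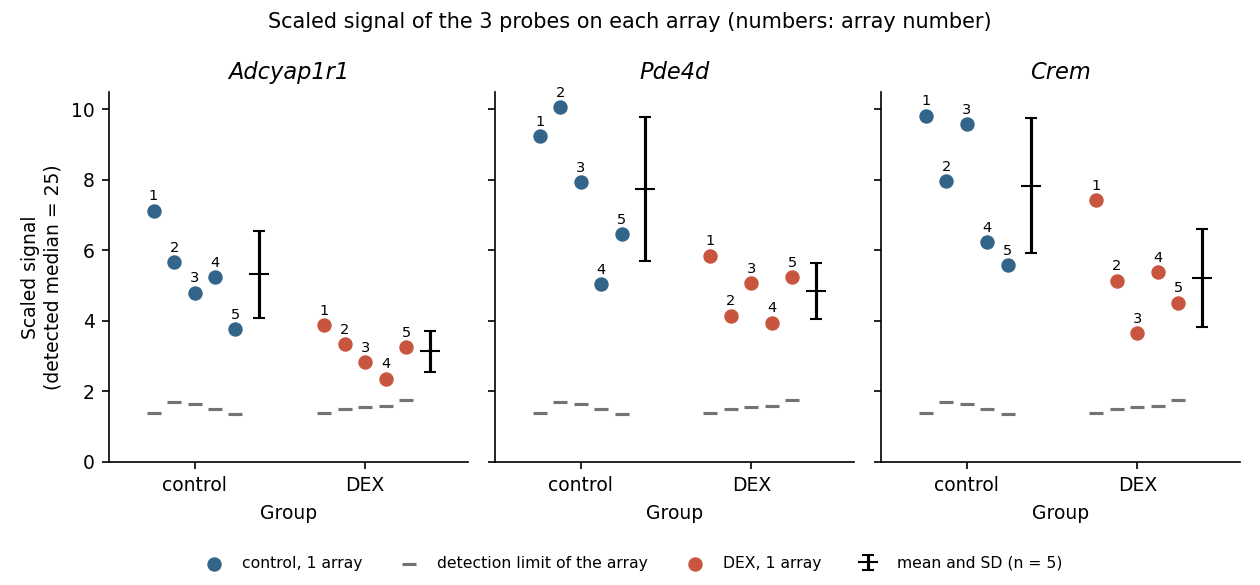
Scaled signal (array median of detected probes = 25) of Adcyap1r1, Pde4d and Crem on each of 5 control (blue) and 5 DEX (red) arrays, with the mean and SD of each group and the detection limit of each array as a grey dash. The means are lower in the DEX group for all 3 genes while the points of the groups overlap, and every point lies above the limit of its array.

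The control arrays that were low were not the same for each gene. Control 5 was the lowest control array for Adcyap1r1 and Crem and control 4 for Pde4d, while DEX 1 was the highest DEX array for all 3. After the group means were taken out, the log2 signals of the 3 genes still varied together over the 10 arrays, with Pearson's r of 0.51 for Crem and Pde4d, 0.60 for Crem and Adcyap1r1, and 0.56 for Pde4d and Adcyap1r1. The median r of Crem with all 12717 other probes detected on every array was 0.57, that of Pde4d 0.34 and that of Adcyap1r1 0.45, so probes in general shared such deviations on these arrays.

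With each array scaled to its detected median, most probes had a lower value in the DEX group, and the 3 genes are read against that shift. Over 14519 probes tested with limma the median log2 fold change was -0.17, and 79.9% were below 0. This shift depends on the scaling, since the median was -0.02 when arrays were scaled on the probes detected on all 10 or by quantile normalization, and 0.07 with the blank mean as a covariate. Relative to the median probe as scaled here, the log2 fold changes were -0.58 for Adcyap1r1, -0.48 for Pde4d and -0.42 for Crem. A lower fold change than that of Adcyap1r1 was found for 1.14% of the probes tested, than that of Pde4d for 2.24% and than that of Crem for 3.29%.

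At the study's thresholds (p under 0.05 without adjustment, and a change of at least 1.5-fold), 392 probes were lower in DEX, which is 2.7% of those tested. In the direction of higher signals, 64 probes (0.441%) passed. All 3 genes are among the 392, which the way they were chosen made likely, so it is no independent evidence. A place on the study's lists does not wholly fix it, since Akap13, named through those lists, did not pass. Crem lies just inside, at a log2 fold change of -0.588 against a threshold of 0.585 in size. No probe had a limma p-value under 0.05 after Benjamini-Hochberg adjustment over all probes (lowest adjusted p = 0.148), while 2100 had an unadjusted one under 0.05. The count lower was 211 without control 1, 646 without DEX 1 and 681 without control 5, and the count higher was 26 without control 3, 110 without DEX 3 and 131 without control 4. Scaling changed the split between lower and higher, which was 98 and 203 after quantile normalization and 114 and 193 when arrays were scaled on the probes detected on all 10.

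Lower calls were most frequent among probes with a mean scaled signal of 2 to 8. In the dimmest class, the 743 probes below 2, 2.96% passed as lower in DEX, near the 2.7% of all probes tested. Of the 1885 probes with a mean scaled signal of 4 to 8, the class that holds all 3 genes, 5.36% passed as lower in DEX, and of the 1583 probes from 2 to 4, 10.4% did. Of the 3191 probes above 128, 0.345% did. The median log2 fold change was -0.16 in the class of the 3 genes and -0.17 in the brightest class, and the range without the lowest and highest 10% of probes ran from -0.49 to 0.17 and from -0.33 to 0.19, in that order.

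The distance of the 3 genes from the detection limit differed by array. The limit was 1.56 ± 0.131 (SD, n = 5) in scaled signal in the DEX group vs. 1.53 ± 0.148 (SD, n = 5) in the control group, which did not exceed the spread between arrays (p = 0.754, two-sided exact permutation test). When the blank spots were not trimmed the difference was 1.505 (p = 0.0476, two-sided exact permutation test), with a limit of 7.78 on DEX 3, and without control 1, control 5 or DEX 5 the trimmed difference was -0.00221, -0.00862 and -0.0194. The signal of Crem was 4.07 to 7.03 times the limit on the control arrays and 2.34 to 5.31 times on the DEX arrays. The signal of Pde4d was 3.33 to 6.61 times the limit on the control arrays and 2.51 to 4.19 times on the DEX arrays.

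For Adcyap1r1 the signal was 2.75 to 5.10 times the limit on the control arrays and at most 2.78 times on the DEX arrays. All 3 genes were above the limit from the trimmed blank spots on all 10 arrays. Without trimming, the limit was 7.78 on DEX 3, above all 3 genes, and 2.69 on DEX 4, above Adcyap1r1. The reading closest to the trimmed limit was that of Adcyap1r1 on DEX 4, at 3.01 SD above the blank mean. There 52 of the 1344 blank spots (3.87%) were as bright or brighter. On control 1, no blank spot was as bright as the Adcyap1r1 spot.

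Before the blank mean was subtracted, the spots of the 3 genes were about as bright in both groups. The spot intensity of Adcyap1r1, in arbitrary units of the scanner, was 64.4, 63.7, 64.2, 65.9 and 64.6 on control arrays 1 to 5 and 64.3, 65.3, 64.0, 64.6 and 66.6 on DEX arrays 1 to 5. The groups overlap over much of their range, which was 64.0 to 66.6 in DEX and 63.7 to 65.9 in control. The means were 65.0 ± 1.04 (SD, n = 5) in the DEX group vs. 64.6 ± 0.839 (SD, n = 5) in the control group.

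The spot intensity of Pde4d was 66.6, 68.3, 67.7, 65.7 and 67.6 on control arrays 1 to 5 and 66.5, 66.2, 66.5, 66.4 and 69.1 on DEX arrays 1 to 5. Here 4 DEX arrays lie close together and the fifth above every control array, and the means were 66.9 ± 1.21 (SD, n = 5) vs. 67.2 ± 1.04 (SD, n = 5). The spot intensity of Crem was 67.2, 66.1, 69.5, 67.0 and 66.6 on control arrays 1 to 5 and 68.3, 67.4, 64.9, 68.0 and 68.2 on DEX arrays 1 to 5. DEX 3 is the lowest of all 10 and control 3 the highest, and the means were 67.4 ± 1.40 (SD, n = 5) vs. 67.3 ± 1.31 (SD, n = 5).

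The blank spots, which are subtracted, were brighter on the DEX arrays. Their mean was 61.4 ± 1.01 (SD, n = 5) in the DEX group vs. 58.8 ± 1.43 (SD, n = 5) in the control group, a difference of 2.61 that exceeded the spread between arrays (p = 0.0159, two-sided exact permutation test). On control arrays 1 to 5 the blank mean climbed with array number, at 57.1, 57.7, 58.8, 59.8 and 60.5. On DEX arrays 1 to 5 it was 59.9, 61.5, 61.0, 61.9 and 62.6. The permutation test takes arrays as exchangeable and does not allow for such a trend. The order of processing is not given in the sources used here, so it cannot be told apart from group. Spots that carry no probe differed by 2.78 (p = 0.0159, two-sided exact permutation test). Among the probes with a mean signal of 4 to 8, the spot itself was brighter in DEX by a median of 2.25, whereas the spots of Adcyap1r1, Pde4d and Crem differed by 0.421, -0.223 and 0.0694. The 3 spots did not rise with the level of the blank spots as the median spot of this class did. The genes were chosen for a lower blank-subtracted signal. This contrast is thus largely set by the choice, and nothing is read from it. The deposited intensity around a spot had a DEX minus control difference of -0.258 for Pde4d, 2.48 for Crem and 2.80 for Adcyap1r1. It follows the spot itself (a median of 95.7% of it for spots of at least 1000). For this reason it is not read here as a separate level of the surroundings. The DEX minus control difference of the gap between spot and blank, which is the difference the genes were chosen for before scaling, was -2.19 for Adcyap1r1, -2.84 for Pde4d and -2.54 for Crem.

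**Figure D2:**
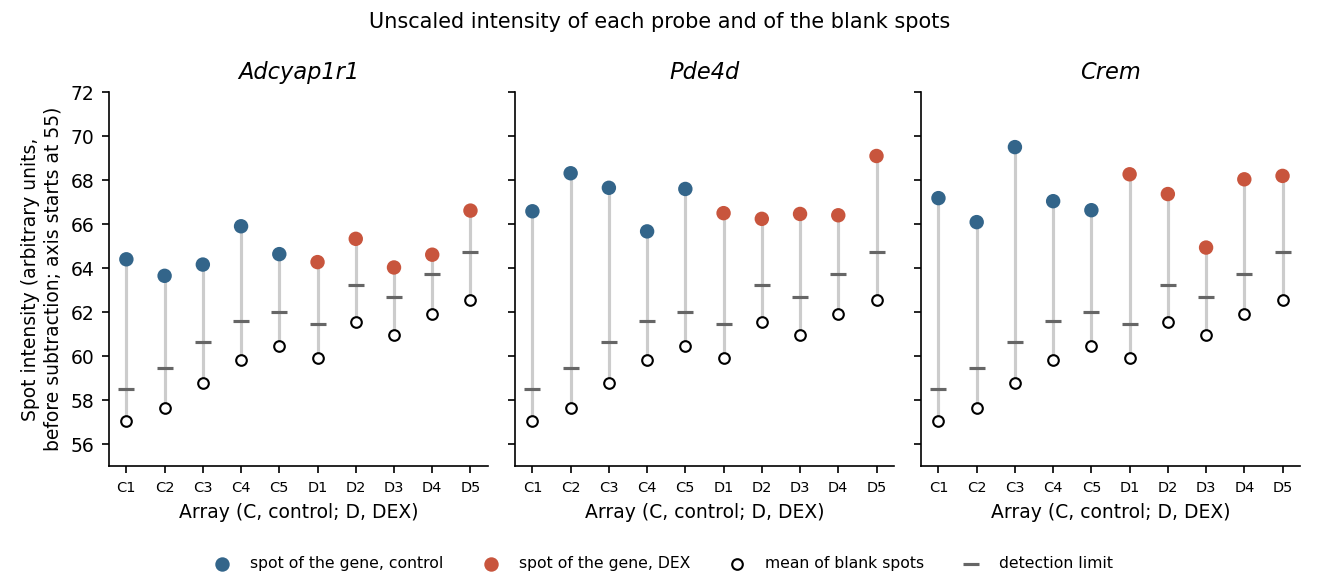
Spot intensity (arbitrary units) before any subtraction (axis from 55) for the spots of the 3 genes, with the mean of the blank spots (open circles) and the detection limit (dashes) of each array, C for control and D for DEX. The spots of the genes stay between 63.7 and 69.5 in both groups, while the blank mean runs from 57.1 to 60.5 on control and from 59.9 to 62.6 on DEX arrays.

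The blank means of the groups overlap on few arrays. Controls 4 and 5 had a blank mean of 59.8 and 60.5, and DEX 1 had 59.9. On these 3 arrays the scaled signal of Crem was 6.22 and 5.58 in control and 7.42 in DEX, so DEX was the higher. That of Pde4d was 5.04 and 6.45 in control and 5.85 in DEX, and that of Adcyap1r1 was 5.24 and 3.77 in control and 3.88 in DEX, so that for both genes DEX lay between the controls. With 1 DEX array this comparison has no test.

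With the blank mean of each array as a covariate, the log2 fold changes were -0.28 with a standard error of 0.21 for Adcyap1r1, -0.12 with 0.22 for Pde4d and -0.05 with 0.26 for Crem. Group and blank mean move together on these arrays, so this fit leaves each of them less precisely known. With no blank subtraction at all, the values were -0.05, -0.07 and -0.06, where the blank level makes up most of each spot. A combined change of the background and the scaling (normexp, a model that takes off the deposited intensity around each spot, with an offset of 50 and then quantile normalization) gave values of -0.01 for Adcyap1r1 and Crem and of 0.00651 for Pde4d. The offset is larger than the signals of the 3 genes and by itself draws fold changes of dim spots towards 0. Quantile normalization alone, of the blank-subtracted signals, gave -0.57 for Adcyap1r1, -0.49 for Pde4d and -0.43 for Crem. Normexp and the offset were not run one by one.

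Scaling by other means kept the values lower in DEX, from -0.57 to -0.69 for Adcyap1r1, from -0.49 to -0.58 for Pde4d and from -0.43 to -0.52 for Crem over quantile, 75th percentile, common probe and no scaling. Crem and Pde4d were then under the 1.5-fold threshold with all 4 of these scalings, and Adcyap1r1 with quantile normalization. With the blank level of a probe's own block, Crem (-0.553) and Pde4d (-0.581) were also under it, and Adcyap1r1 was at -0.723. With spots without a probe as background, the values were -0.669, -0.736 and -0.916, in that order. Both of these backgrounds were chosen after seeing the data. With detection at 3 SD, Crem was at -0.568, under the threshold. The deposited table, in which the signals are rounded to whole numbers such as 2 for Adcyap1r1 on DEX 4, gave -0.86 for Adcyap1r1, -0.63 for Pde4d and -0.61 for Crem.

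**Figure D3:**
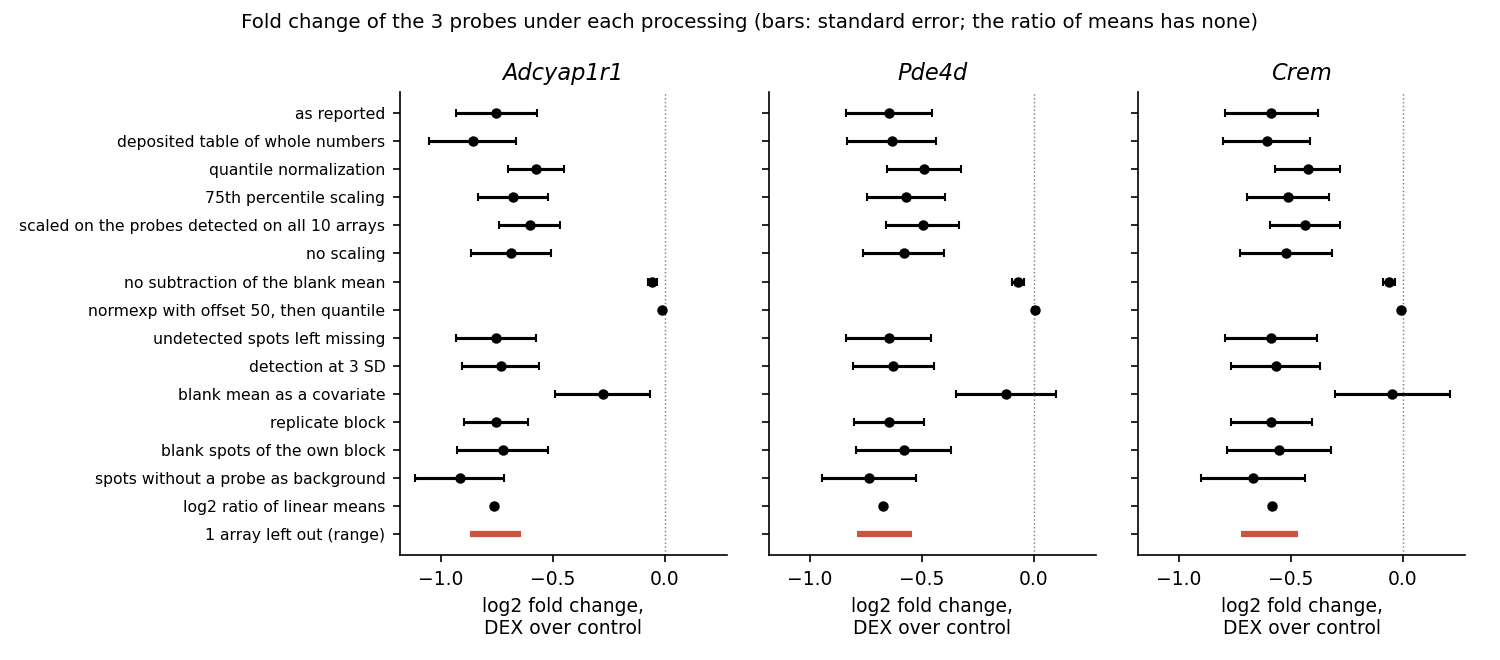
log2 fold change (DEX over control) of the 3 genes as reported and under each other processing, with the standard error as bars and the range over leaving out each array in red. Values lie near the reported ones under every scaling and move towards 0 without subtraction of the blank mean, with normexp, offset and quantile normalization together, and with the blank mean as a covariate.

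The rank of a probe within its array does not depend on the scaling or on the subtraction of 1 value from all spots. The rank of Adcyap1r1 among the 20174 gene probes was at percentile 44.3, 43.0, 41.2, 43.2 and 40.8 on control arrays 1 to 5 and 37.9, 39.2, 38.5, 34.0 and 37.3 on DEX arrays 1 to 5. Every DEX array lay below every control array, as for 1.23% of the probes tested. This rank comes from the same arrays and the same comparison as the choice of the genes, so nothing is read from it.

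The rank of Pde4d was at percentile 48.1, 51.5, 48.3, 42.6 and 47.6 in control and 43.7, 42.0, 45.5, 39.9 and 43.5 in DEX, with control 4 inside the range of DEX. The rank of Crem was at percentile 49.0, 47.9, 51.1, 45.5 and 45.7 in control and 46.8, 44.8, 41.6, 44.0 and 41.4 in DEX, with DEX 1 above controls 4 and 5. The difference of the means, DEX minus control, was -4.73 percentile points for Pde4d, -4.14 for Crem and -5.11 for Adcyap1r1.

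**Figure D4:**
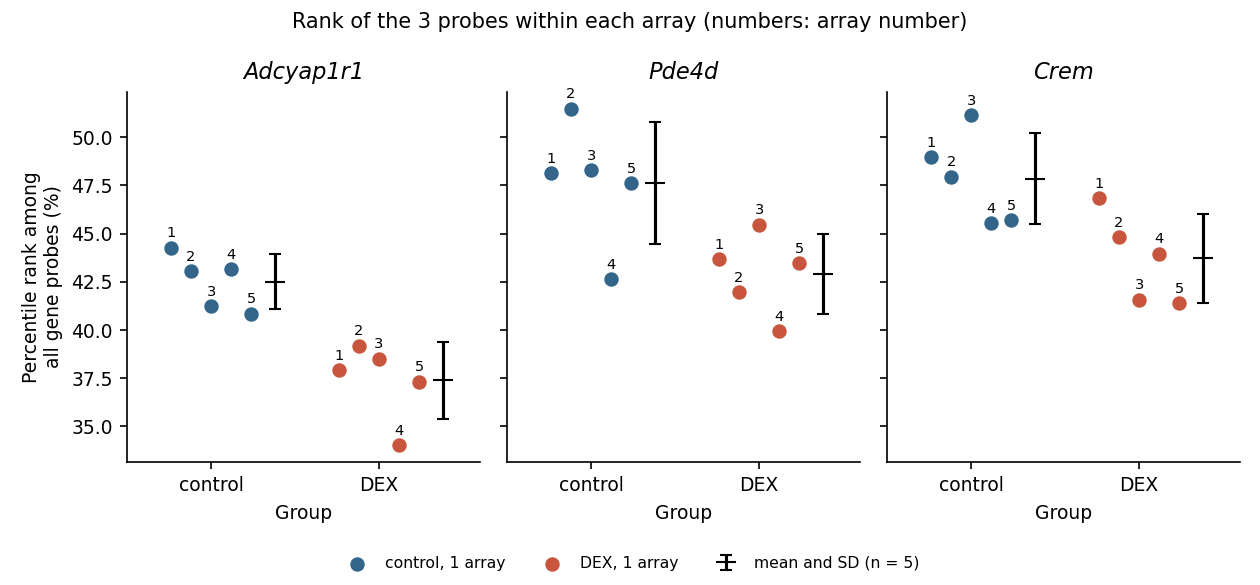
Percentile rank (%) of the 3 probes among the 20174 gene probes of each array, with the mean and SD of each group of 5 and an axis that does not start at 0. The groups do not overlap for Adcyap1r1 (34.0 to 39.2 in DEX, 40.8 to 44.3 in control) and overlap for Pde4d and Crem.

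Of 120 other genes listed for the pathway (receptors, G proteins, cyclases, phosphodiesterases, kinase subunits and anchors, transcription factors and targets), 4 have a probe that could be named, and all 4 were named through the study's lists of changed mRNAs. They were thus chosen on this contrast, and their counts are no independent evidence. Of the 4, 3 passed as lower in DEX and 0 as higher, against 2.7% and 0.441% of all probes tested. Dusp1, a phosphatase gene that cAMP induces through CREB, was at 321 ± 37.3 (SD, n = 5) in the DEX group vs. 644 ± 182 (SD, n = 5) in the control group, a log2 fold change of -0.96 (limma adjusted p = 0.161).

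Dusp5, which codes for a nuclear ERK phosphatase, had a log2 fold change of -0.59 (limma adjusted p = 0.278), and Bhlhe40, which codes for a repressor of the clock, one of -0.71 (limma adjusted p = 0.247). For these 3 targets every DEX array lay below every control array in scaled signal, as for 1.53% of the probes tested, and for Dusp5 only just (43.4 in the lowest control and 43.2 in the highest DEX array). The count of 3 fell to 1 without control 1, after quantile normalization, when arrays were scaled on common probes or without blank subtraction, and to 0 with normexp, its offset and quantile normalization together or with the blank mean as a covariate. Akap13, which codes for an anchor of protein kinase A, was at 32.4, 21.1, 25.5, 25.7 and 16.2 on control arrays and 17.5, 15.9, 12.5, 14.8 and 19.5 on DEX arrays, a log2 fold change of -0.57 that lies just under 1.5-fold. Before subtraction, the spots of these 4 genes were dimmer in DEX than in control, at 428 vs. 757 for Dusp1, 105 vs. 121 for Dusp5, 105 vs. 128 for Bhlhe40 and 79.9 vs. 85.1 for Akap13.

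Markers of the cell types of the heart could be named for 16 of 48 listed genes, all through the same lists of changed mRNAs. Of these, 15 passed as lower and 1, Ccl3, as higher, against 2.7% and 0.441% of all probes tested. The way they were named largely sets this count, so it is no independent evidence. Among cardiomyocyte markers, the scaled signal of Ttn, which codes for the sarcomere protein titin, ran from 13.6 to 17.7 on the DEX and from 19.2 to 31.3 on the control arrays, and that of Ky from 4.86 to 9.02 and from 7.46 to 13.8. The summed signal of 5 neuron and glia markers (Nrgn, Nova1, Grm5, Lrrc4c and Slitrk6) ran from 24.7 to 43.6 on the DEX and from 44.9 to 63.3 on the control arrays. That of 4 endothelial markers ran from 107 to 166 and from 148 to 297. Most of it was Apold1, with a mean of 104 in DEX and 161 in control. The summed signal of 2 fibroblast and smooth muscle markers, Fap and Myocd, ran from 9.39 to 12.9 and from 13.4 to 22.4. That of 2 blood and immune markers ran from 19.6 to 31.1 and from 17.8 to 33.5. Taken singly, Fap, Myocd and each of the 5 neuron and glia markers overlapped between the groups. The sums come from genes named through lists drawn from this same contrast, so nothing is read from them. The remaining defining markers, such as Myh6, Pecam1, Col1a1 and Th, have no named probe here, so the makeup of the tissue could not be checked, and the part of cell makeup in the values of the 3 genes was not tested.

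Among 164 named probes detected on all 10 arrays, those whose log2 signals varied most like each gene after the group means were taken out are given by Pearson's r over the 10 arrays, which share the same blank level and scaling on each array. For Crem these were Nbea (r = 0.926), Gpam (r = 0.897) and Apold1 (r = 0.895). For Pde4d they were Tfpi2 (r = 0.931), Gramd4 (r = 0.920) and Znf354b (r = 0.907). For Adcyap1r1 they were Ccnd1 (r = 0.858), Kcne3 (r = 0.839) and Dpep2 (r = 0.837). Over all 12717 probes, 1.47% were more like Crem than Nbea was, 0.0550% more like Pde4d than Tfpi2 was, and 2.41% more like Adcyap1r1 than Ccnd1 was.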

How the data were processed

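mRNA was measured on 3D-Gene Rat Oligo chips (20k, Toray) with Cy5-labelled RNA. The authors deposited the scanner's spot and background intensity of each spot, on a linear scale and not scaled, together with a normalized table in whole numbers (a score, since the authors rounded a scaled intensity). The methods give a detected median of 25. The other steps were found by comparing both. The mean of 1344 blank spots, without the highest and lowest 5%, was subtracted, and spots above 2 SD and not failed by the scanner software were taken as detected. These steps gave 142667 of 142668 deposited values after rounding. The same unrounded signals were used here, so signals near the blank level carry its error.

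The files give Ensembl identifiers without a build or symbols. The 165 listed mRNAs of the study were matched to probes by fold change and p-value, and 165 matched. Other probes were not named. The level of 1 marker gene is not reported here. Members and gene lists were chosen with earlier results of these data known. The genes named are the 3 members, pathway genes with a named probe and, for each member, the 3 named probes that vary most like it. Listed cell type markers are also named, outside this rule and after their values were seen.

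Undetected spots took their array's lowest detected signal, and probes detected on 3 or more of a group's 5 arrays were tested on log2 signals with limma 3.58.1 (R 4.3.3), without covariates. Group comparisons of arrays used exact permutation of 252 arrangements (scipy 1.17.1, Python 3.11.15). The limma script was first tested on simulated data. Alternatives were other scalings, backgrounds, filters and limits, the deposited table and the replicate number as a block. Others were the blank mean as a covariate, a t-test on the log2 signals and each array left out. Correlations between arrays ran from 0.982 to 0.992 across probes, and no arrays were identical. Between 13528 and 15337 probes were detected on an array. The number of arrays limits the precision.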

Additional observations from a re-analysis of the deposited data

Results flagged for a closer look

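Dixon's test at the 95% level was run on 18 sets of 5 values of the 3 genes, and chance marks about 1 in 20. It marked 2 spot intensities before subtraction. For Crem, DEX 3 was at 64.9, the next DEX array at 67.4 and the highest at 68.3. For Pde4d, DEX 5 was at 69.1, the next at 66.5 and the lowest at 66.2. Neither array was marked for the scaled signal of the same gene.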

How the results depend on the processing

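Of 24 alternatives, the log2 fold change of Adcyap1r1 and Crem stayed below 0 in 24 and that of Pde4d in 23. Without subtraction of the blank mean, with normexp (offset 50) and quantile normalization, and with the blank mean as a covariate, the values were -0.0627, -0.00866 and -0.0478 for Crem, -0.0689, 0.00651 and -0.124 for Pde4d, and -0.0548, -0.0109 and -0.276 for Adcyap1r1. Normexp subtracts the deposited background, which follows the spot (a median of 95.7% of it for spots of at least 1000). Leaving out 1 array gave -0.72 to -0.47 for Crem, -0.79 to -0.54 for Pde4d and -0.87 to -0.64 for Adcyap1r1.

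The counts of probes lower and higher in DEX, 392 and 64, were 98 and 203 with quantile normalization, 216 and 121 with 75th percentile scaling, 114 and 193 scaled on common probes, 233 and 112 without scaling, 5 and 8 without blank subtraction, 103 and 75 with normexp and quantile normalization, and 79 and 255 with the covariate. The count lower was 195 with detection at 3 SD, 239 for probes detected on all 10 arrays, and 667 with spots without a probe as background, a choice made after seeing the data, as was the blank level of a probe's own block. Leaving out 1 array gave 211 (without control 1) to 681 (without control 5; 646 without DEX 1) lower and 26 (without control 3) to 131 (without control 4; 110 without DEX 3) higher. A t-test in place of limma, on the same log2 signals and probes, gave 278 and 55. It is not the study's own calculation, whose 165 listed mRNAs match ratios of linear means over probes detected on all 10 arrays. Of the 4 other pathway genes, 3 were lower, against 1 with quantile, common probe or no blank subtraction, 0 with normexp and quantile normalization or the covariate, and 1 (without control 1) to 4 when 1 array was left out. The cause of these changes was not tested.

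The difference in detection limit was 1.505 when blank spots were not trimmed (exact permutation p = 0.0476), where DEX 3 has a limit of 7.78, and -0.0194 to 0.0755 when 1 array was left out. It was below 0 without control 1 (-0.00221), control 5 (-0.00862) or DEX 5 (-0.0194). Replicate numbers do not pair the arrays (correlations of same-numbered deviations -0.0975 to 0.0699), and with the replicate block the counts were 383 and 66, and the log2 fold changes were unchanged at -0.59 for Crem, -0.65 for Pde4d and -0.75 for Adcyap1r1.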
